A study of Homo sapiens with 16 samples.

Results

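The 49 genes described here are interferon-stimulated genes, chosen by symbol among the 34618 genes of the deposited count table, in which all 49 were found. They were followed in U937, a monocytic line, and KG1A, a line of immature cells, both established lines that the labels class as acute myeloid leukaemia. The groups were U937 cells with NEL at 10 µM, U937 cells with the vehicle DMSO, KG1A cells with NEL at 10 µM and KG1A cells with DMSO, with 4 libraries of polyadenylated RNA in each and 16 in all. All 4 groups shared RPMI medium with dialyzed serum. NEL was read as nelarabine, a purine nucleoside analogue, which rests on knowledge of the published study, since no label spells the abbreviation out. No label gives a treatment time, and each line is 1 established line. The labels do not say whether replicates were grown apart, so every p-value here describes only how far these libraries scatter, and that scatter may be technical.

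Type I interferons bind a receptor made of IFNAR1 and IFNAR2, whose kinases JAK1 and TYK2 pass the signal on to transcription factors. STAT2 and IRF9 are subunits of the complex ISGF3, which binds the interferon-stimulated response element (ISRE) in front of its target genes. The proteins made from these targets sense foreign RNA, degrade or edit it, block steps of viral growth, or feed back on the signal. Interferon gamma acts through another element (GAS), and IRF1 and IRF7 are themselves interferon-induced factors that switch on further genes. Myeloid cells hold many of these transcripts at a basal level without infection.

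The ISRE letters stand in the promoters of many, but not all, of these genes, and 5 promoters are printed to show both cases. A promoter here is the RefSeq sequence from 250 bases before to 50 bases after an annotated start (GRCh38.p14), and 39 of the 49 genes were in that table. The motif searched was GAAA, any 2 bases and GAAA again, on both strands, matches may overlap each other or another motif, and capitals mark each match. RSAD2, ISG20 and MX1 are the genes with a match that had the largest called rises in U937, each shown by a promoter that holds it. STAT2 had the largest rise among those without a match, and IFIT1, which fell in U937, was added after its values were seen.
RSAD2, chr2:6877527-6877826, plus strand: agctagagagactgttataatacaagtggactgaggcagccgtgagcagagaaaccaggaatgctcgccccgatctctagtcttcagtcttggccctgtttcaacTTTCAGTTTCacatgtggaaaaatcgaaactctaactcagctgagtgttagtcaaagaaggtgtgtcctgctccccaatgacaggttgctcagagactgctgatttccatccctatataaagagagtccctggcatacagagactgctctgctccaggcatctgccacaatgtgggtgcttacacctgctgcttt
ISG20, chr15:88638766-88639065, plus strand: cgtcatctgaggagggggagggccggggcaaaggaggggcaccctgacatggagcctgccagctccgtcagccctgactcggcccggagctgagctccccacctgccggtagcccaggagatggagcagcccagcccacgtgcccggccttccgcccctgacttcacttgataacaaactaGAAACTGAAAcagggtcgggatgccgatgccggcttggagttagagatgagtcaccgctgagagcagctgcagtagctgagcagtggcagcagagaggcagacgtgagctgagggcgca
MX1, chr21:41420308-41420607, plus strand: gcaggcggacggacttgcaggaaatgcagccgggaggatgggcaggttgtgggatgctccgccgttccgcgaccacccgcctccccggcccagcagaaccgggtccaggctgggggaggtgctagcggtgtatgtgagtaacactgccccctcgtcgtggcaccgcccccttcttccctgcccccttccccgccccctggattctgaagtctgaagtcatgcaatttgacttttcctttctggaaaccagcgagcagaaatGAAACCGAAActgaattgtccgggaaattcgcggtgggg
STAT2, chr12:56360058-56360357, minus strand, no match: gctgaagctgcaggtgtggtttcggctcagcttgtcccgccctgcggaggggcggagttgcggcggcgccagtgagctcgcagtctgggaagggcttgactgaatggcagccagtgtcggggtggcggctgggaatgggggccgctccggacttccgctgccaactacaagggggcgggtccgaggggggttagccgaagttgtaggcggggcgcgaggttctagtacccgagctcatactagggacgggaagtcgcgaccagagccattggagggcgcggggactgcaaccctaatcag
IFIT1, chr10:89392373-89392672, plus strand: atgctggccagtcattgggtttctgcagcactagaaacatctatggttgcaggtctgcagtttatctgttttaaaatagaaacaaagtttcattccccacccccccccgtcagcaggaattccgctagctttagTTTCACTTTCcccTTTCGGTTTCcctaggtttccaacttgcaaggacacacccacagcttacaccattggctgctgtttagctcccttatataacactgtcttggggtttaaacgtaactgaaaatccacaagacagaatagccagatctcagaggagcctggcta

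At least 1 such match lay in a promoter of 24 of the 39 genes (61.5%), against 4.38% of all 27305 genes in the table. For the GAS letters TTCNNNGAA, which read the same on both strands, the shares were 9 of 39 (23.1%) and 9.38%. The IFIT1 promoter held 2 ISRE matches, starting 116 and 103 bases before the start site, and the single promoters of IFIT5, IFI6, IFIH1 and HERC5 held 3 matches each. Of the 24 genes with a match, 10 rose, 3 fell, 6 were not called and 5 were not tested in U937. Of the 15 without one, 11 rose, 2 fell and 2 were not called there. In KG1A, 10 of the 24 rose, 6 fell and 8 were not called, against 3, 4 and 8 of the 15. Of all genes tested, 34.6% were called higher and 34.7% lower in U937, and 23.6% higher and 23.6% lower in KG1A. No difference between these shares was tested, and a match does not show that a factor binds.

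**Figure D1:**
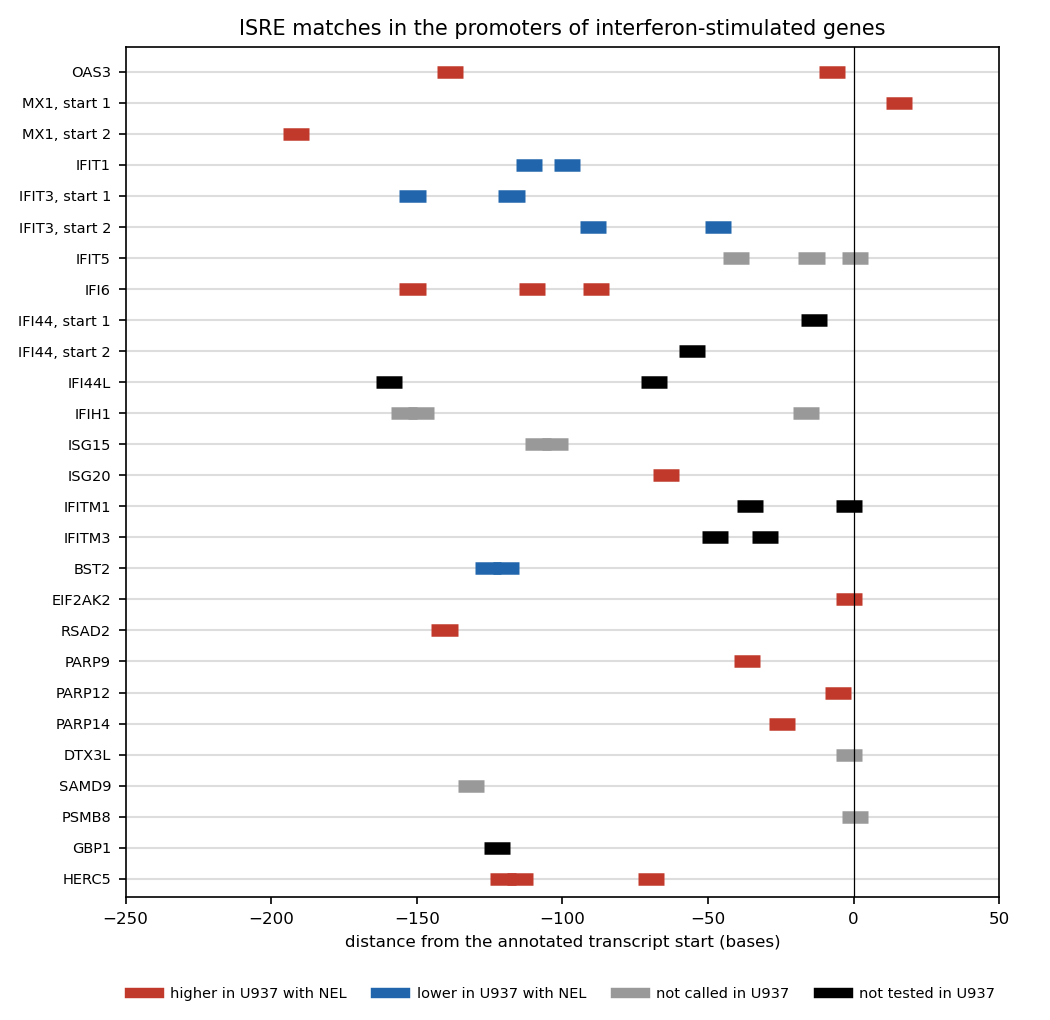
Positions of ISRE matches in the promoters of the 24 genes that hold one, in bases from the annotated transcript start; each bar is one match, each row one promoter, and genes with several starts have a row for each start with a match. Colour gives the call in U937 with NEL: 10 of the genes were higher, 3 lower, 6 not called and 5 not tested, so genes with matches appear in every class.

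Library totals ran from 10641567 to 11777684 counts, at which 0 counts in a library allow up to 0.255 to 0.282 CPM (counts scaled by library size and TMM factors over all 16 libraries), for counting error only. The 49 genes together took 0.210 ± 0.00296% of the counts in U937 with NEL, against 0.183 ± 0.00232% with DMSO, and 0.370 ± 0.00619% in KG1A with NEL, against 0.360 ± 0.00193% with DMSO (mean ± SD, n = 4). CD34, the defining progenitor antigen, averaged 973 CPM in KG1A with NEL and 888 CPM with DMSO, but 0.838 CPM in U937 with NEL and 0.333 CPM with DMSO. With FLT3 and KIT, the progenitor list summed to 895 to 1036 CPM in KG1A with NEL and 836 to 943 CPM with DMSO. CD34 thus made up most of the KG1A sum. In U937 the list summed to 1.65 to 2.55 CPM with NEL and 0.708 to 1.52 CPM with DMSO. The 7 genes listed as monocytic markers were ELANE, AZU1, PRTN3, CSF1R, CD4, FCGR1A and CD14. They summed to 1290 to 1332 CPM in U937 with NEL and 1761 to 1951 CPM with DMSO, and to under 1 CPM in every KG1A library, with CD14 near 0 in both lines. As ELANE, AZU1 and PRTN3 are granule protein genes, the sum does not measure monocytic identity. Of the 6 listed genes tested in U937, 3 were called higher with NEL and 2 lower, with a median log2 fold change of 0.32 and a range from −1.35 to 2.84. Of 5 T lymphoid markers, CD3D was not called in KG1A and CD3E rose by 0.42 ± 0.08 (edgeR adjusted p = 0.000429), and the list summed to 139 to 151 CPM with NEL and 138 to 157 CPM with DMSO. The 3 B lymphoid markers summed to 26.2 to 30.9 CPM in U937 with NEL and 10.3 to 14.1 CPM with DMSO, with MS4A1 at 0 counts in every DMSO library. The 6 myeloid markers summed to 717 to 792 CPM in U937 with NEL and 759 to 863 CPM with DMSO. In KG1A they summed to 125 to 151 CPM with NEL and 96.3 to 109 CPM with DMSO. The 3 NK markers summed to 54 to 56.8 CPM in KG1A with NEL and 48.9 to 52.5 CPM with DMSO. In U937 the NK sums were 3.23 to 4.84 CPM with NEL and 2.57 to 3.12 CPM with DMSO. The part of these markers in the results was not tested, and in such bulk RNA fewer cells with a transcript and less of it per cell cannot be told apart. In plasmacytoid dendritic cells, a main source of interferon, CLEC4C and LILRA4 are defining transcripts, and they were at 0 counts in every KG1A library and averaged at most 0.472 CPM in U937. With the third marker of that list, the sum was 21.1 to 25.9 CPM in KG1A with NEL and 14.7 to 18.8 CPM with DMSO, and 2.64 to 5.35 CPM in U937 with NEL and 1.61 to 2.74 CPM with DMSO. Libraries numbered 1 and 3 stood apart from those numbered 2 and 4 in every group, so values within these sets stand beside the counts.

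In U937, NEL moved these genes in both directions, mostly upwards. Of the 42 members tested, 25 were higher with NEL, 9 were lower and 8 were not called (edgeR quasi-likelihood test, adjusted p under 0.05), while 34.6% of all 14390 genes tested were called higher, 34.7% lower and 69.3% either way. The median log2 fold change was 0.39 over the members and −0.00 over all genes, and 10 members rose and 1 fell at least 2-fold. The share of all genes at the 2-fold cut was not counted in either line, so counts at that cut are a description. Within libraries 1 and 3 alone 25 were called higher and 8 lower, and within libraries 2 and 4 alone 24 and 7. Shares of all genes were counted in the main fits only, so counts from library sets and other fits, here and below, have none beside them. All 34 called members had the same direction in both sets, but they were called on these same libraries, so this is no independent support. OAS2, IFI44, IFI44L, IFITM1, IFITM3, GBP1 and GBP2 did not pass the filter on low counts. TRIM22, ISG20, RSAD2 and MX1 reached 10 counts in 0, 1, 3 and 3 of the 4 DMSO libraries, so they were tested mainly through their NEL libraries, and their direction is no independent support for the count.

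**Figure D2:**
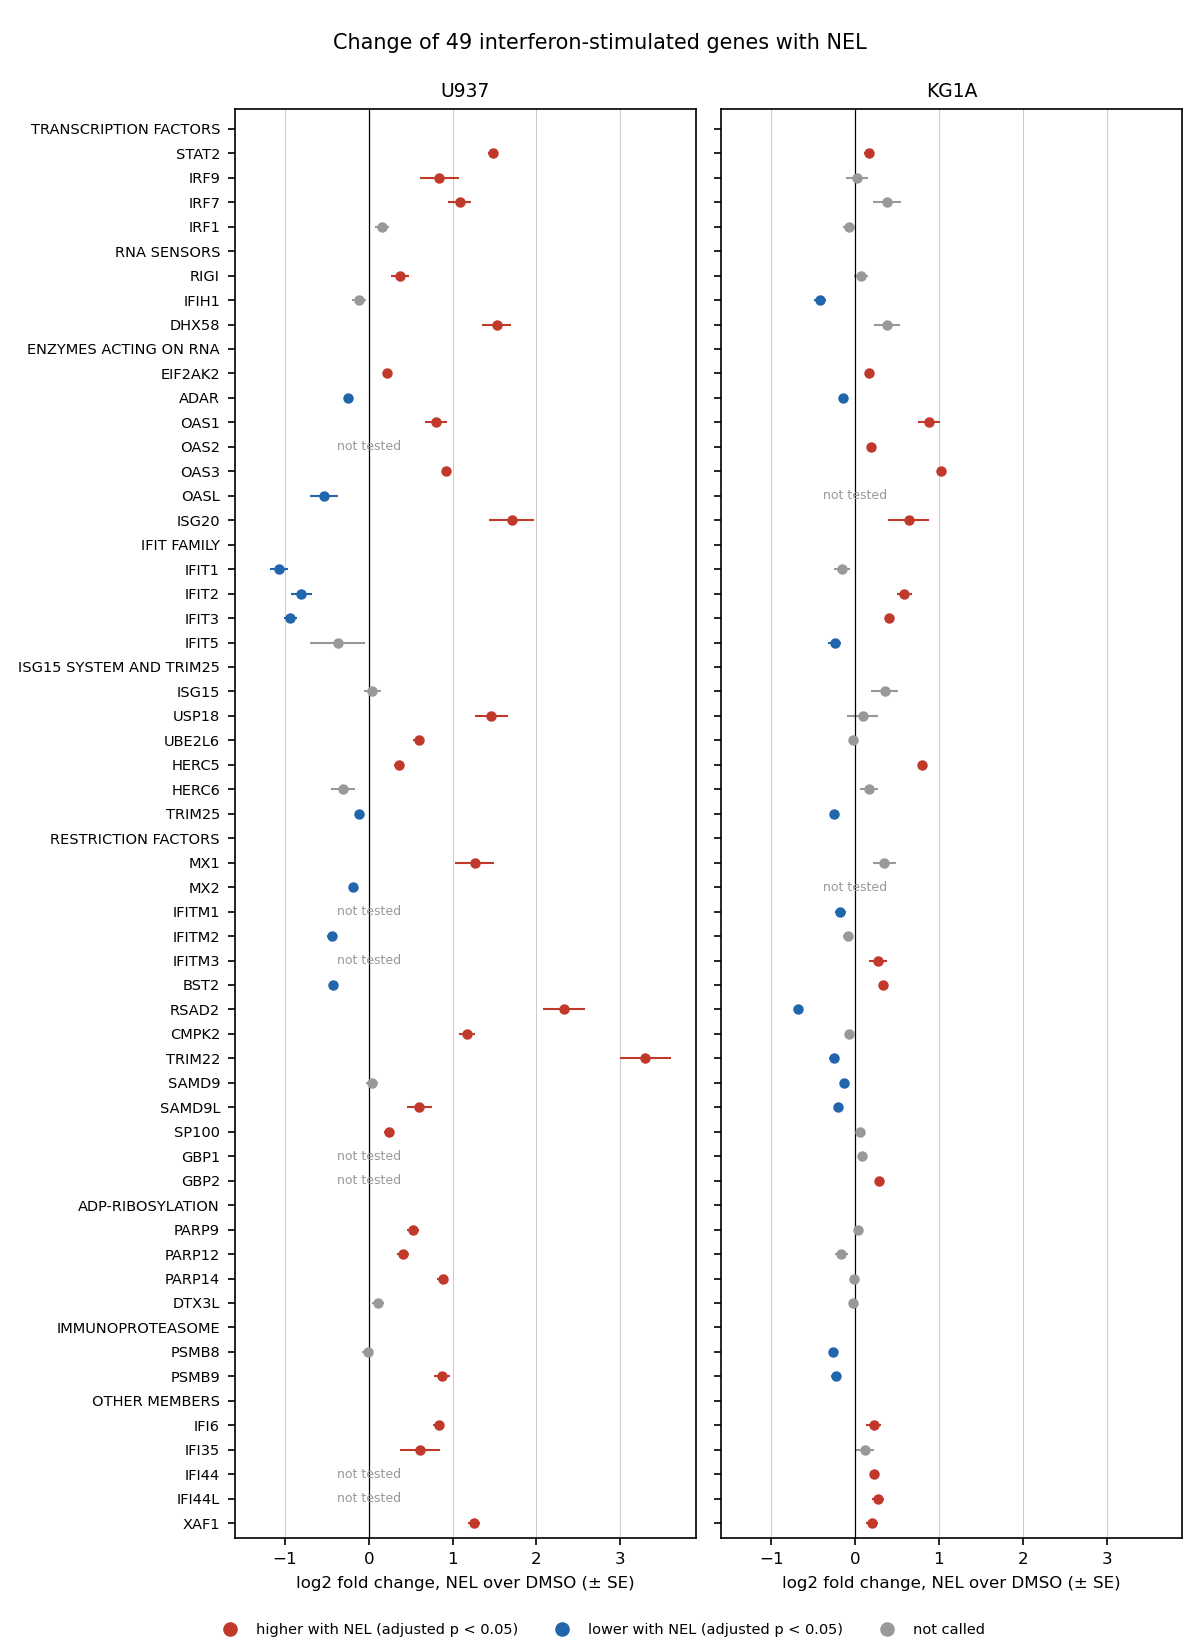
Log2 fold change of NEL over DMSO for the 49 interferon-stimulated genes in U937 (left) and KG1A (right), grouped by role; points are edgeR estimates, bars ±1 SE, colours the call at an adjusted p under 0.05. In U937 25 genes were higher and 9 lower, over a range of −1.07 to 3.30, and in KG1A 16 were higher and 11 lower, between −0.68 and 1.03.

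Among the transcription factors, 3 of 4 rose in U937, where 34.6% of all genes tested were called higher. STAT2, the subunit that gives ISGF3 its activation domain (chr12:56735381-56753939, GRCh37, minus strand), had 99.1, 98.3, 103 and 101 CPM in the NEL libraries, against 35.7, 39.1, 32.5 and 37.4 CPM with DMSO. Every NEL library was above every DMSO library, by more than the whole range within either group, and the log2 fold change was 1.48 ± 0.06 (SE; edgeR adjusted p = 5.19e-11). IRF9, the DNA-binding subunit of the same complex, was scarce, with 2.94, 2.55, 3.48 and 2.21 CPM with NEL against 2.15, 1.5, 0.982 and 1.59 CPM with DMSO. Its lowest NEL library stood just above its highest DMSO library, and the rise was 0.84 ± 0.23 on the log2 scale (edgeR adjusted p = 0.0053). An unnamed gene on the same strand overlaps IRF9 by 5513 bases, so its reads are uncertain. The call was lost in libraries 2 and 4 alone (edgeR adjusted p = 0.0773). IRF7, the factor that amplifies type I interferon production, reached 11, 10.4, 12.3 and 10.6 CPM with NEL, against 5.09, 6.82, 4.82 and 4.16 CPM with DMSO. These groups were well apart, at 1.08 ± 0.13 (edgeR adjusted p = 6.28e-06). IRF1, a factor induced by interferon gamma, had 17.8, 15.5, 17.7 and 19 CPM with NEL and 15.8, 15.1, 17.0 and 15.1 CPM with DMSO, and the groups overlapped (log2 0.16 ± 0.08, edgeR adjusted p = 0.108). It passed the threshold without NEL library 2 (edgeR adjusted p = 0.0393).

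Of the 3 helicases that sense viral RNA, 2 were called higher in U937, against 34.6% of all genes tested. DHX58, also known as LGP2, a regulator of the other two, had 5.36, 5.53, 7.13 and 5.85 CPM with NEL and 2.23, 2.57, 1.96 and 1.5 CPM with DMSO. The groups did not overlap, and the log2 fold change was 1.53 ± 0.17 (edgeR adjusted p = 2.54e-06). RIGI, the sensor of short 5'-triphosphate RNA, rose by 0.37 ± 0.11 (edgeR adjusted p = 0.00633), although 1 NEL library lay inside the DMSO range. IFIH1, or MDA5, the sensor of long double-stranded RNA, was not called (−0.12 ± 0.08, edgeR adjusted p = 0.205), except without DMSO library 1 (−0.18, edgeR adjusted p = 0.0451).

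Of 7 enzymes that act on RNA, 4 rose, 2 fell and OAS2 was not tested in U937, beside 34.6% higher and 34.7% lower of all genes. ISG20, an exonuclease that degrades RNA, had 2.94, 2.30, 3.48 and 3.22 CPM with NEL, against 0.715, 1.59, 0.714 and 0.620 CPM with DMSO. No DMSO library reached a NEL library, and the rise was 1.70 ± 0.27 (edgeR adjusted p = 7.05e-05). ISG20 was tested mainly through its NEL libraries, so this p-value is no independent support for the direction. OAS3 and OAS1, which make the 2-5A second messenger that activates RNase L, rose by 0.92 ± 0.04 and 0.80 ± 0.13 (edgeR adjusted p = 5.16e-10 and 8.39e-05). OAS3 stood at 94.9, 96.1, 96.9 and 94.3 CPM with NEL and 52.5, 47.8, 50.7 and 51.8 CPM with DMSO, and OAS1 at 7.79 to 10.5 CPM with NEL and 4.46 to 5.72 CPM with DMSO, with no overlap for either. EIF2AK2, the kinase PKR, rose by 0.22 ± 0.05 (edgeR adjusted p = 0.000695). OASL, an OAS relative without the enzyme activity that enhances RIGI signalling, fell to 1.99, 2.04, 1.74 and 1.78 CPM with NEL, against 2.77, 3.01, 2.41 and 2.83 CPM with DMSO. Its groups were apart too (−0.54 ± 0.17, edgeR adjusted p = 0.011), but the call was lost by DESeq2, in libraries 1 and 3 and in libraries 2 and 4 (edgeR adjusted p = 0.155 and 0.0607 in the sets). ADAR, the RNA-editing enzyme, fell by 0.25 ± 0.04 (edgeR adjusted p = 2.71e-05).

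Of the 4 IFIT genes, whose products bind viral RNA, 3 fell in U937, against 34.7% of all genes called lower. The IFIT genes lie together on chromosome 10 (IFIT1 at chr10:91152303-91163745 and IFIT2 at chr10:91061712-91069033, GRCh37, both plus strand). IFIT1 had 5.10, 5.53, 5.13 and 4.41 CPM with NEL, against 11.1, 10.2, 11.3 and 9.91 CPM with DMSO, the largest fall among the members tested (−1.07 ± 0.11, edgeR adjusted p = 7.09e-07). IFIT3 had 11.2, 12.7, 11.9 and 12.2 CPM with NEL and 22.2, 21.4, 23.6 and 25.1 CPM with DMSO (−0.94 ± 0.08, edgeR adjusted p = 1.26e-07). For IFIT2 the values were 4.76, 7.57, 5.91 and 5.60 CPM with NEL and 9.74, 10.3, 11 and 10.9 CPM with DMSO (−0.81 ± 0.13, edgeR adjusted p = 6.16e-05). In all of them every NEL library was below every DMSO library. IFIT5 was not called (−0.37 ± 0.33, edgeR adjusted p = 0.325), but it was lower in libraries 1 and 3 (−0.94, edgeR adjusted p = 0.0333) and stood at 0.16 in libraries 2 and 4 (edgeR adjusted p = 0.707). LIPA, a lysosomal lipase gene, spans all of IFIT1, IFIT2 and IFIT3 on the opposite strand, and whether the counting used strand is not stated in the labels. LIPA itself averaged 114.8 ± 3.1 CPM with NEL and 101.2 ± 4.61 CPM with DMSO (SD, n = 4) and was called higher, by 0.19 ± 0.04 (edgeR adjusted p = 0.00194). Whether LIPA reads entered the counts of the IFIT genes was not tested.

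The ISG15 system conjugates the ubiquitin-like protein ISG15 to other proteins, and its parts did not move as one in U937. USP18, the protease that removes ISG15 and damps receptor signalling, had 7.61, 10.6, 7.48 and 9.76 CPM with NEL, against 2.68, 3.81, 1.96 and 4.42 CPM with DMSO. Both groups varied, yet without overlap (1.46 ± 0.20, edgeR adjusted p = 1.77e-05). UBE2L6, the conjugating enzyme, and HERC5, the ligase, rose by 0.59 ± 0.07 and 0.36 ± 0.06 (edgeR adjusted p = 2.17e-06 and 6.86e-05). UBA7, the activating enzyme, which is not a member, averaged 38.1 CPM with NEL and 13.4 CPM with DMSO (1.52 ± 0.08, edgeR adjusted p = 2.26e-09). ISG15 itself had 12.3 to 15.8 CPM with NEL and 12.6 to 15.5 CPM with DMSO, which overlapped (0.04 ± 0.10, edgeR adjusted p = 0.726). TRIM25, a ubiquitin ligase of RIGI that can also carry ISG15, fell by 0.12 ± 0.04 (edgeR adjusted p = 0.0307), a call lost by DESeq2, in each library set alone, and without DMSO library 4 or NEL library 1 or 2 (edgeR adjusted p from 0.0638 to 0.0891 with 1 library left out). HERC6 was not called in U937 (−0.31 ± 0.14, edgeR adjusted p = 0.0696), but was with replicate numbers as a block (edgeR adjusted p = 0.0274) and without DMSO library 3 or NEL library 2 (edgeR adjusted p from 0.0172 to 0.0377).

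Restriction factors, which block viral entry, assembly or genome copying, gave the largest rises in U937. TRIM22, RSAD2 and MX1 were tested there mainly through their NEL libraries, so their p-values are no independent support for the direction. Of 14 restriction factors, 6 rose, 3 fell, 1 was not called and 4 were not tested. Of all genes tested there, 34.6% were called higher and 34.7% lower, so the share that fell was no higher than over all genes. TRIM22, a nuclear ubiquitin ligase with antiviral activity (chr11:5710919-5758319, GRCh37, plus strand), had 3.72, 4.00, 2.61 and 3.14 CPM with NEL, against 0.268, 0.620, 0.179 and 0.266 CPM with DMSO. The lowest NEL library was far above the highest DMSO library, and the rise of 3.30 ± 0.30 was the largest of the 42 (edgeR adjusted p = 3.35e-07), although these DMSO levels come from 2 to 7 counts per library. TRIM5 overlaps the whole of TRIM22 on the opposite strand and rose by 0.40 ± 0.09 (edgeR adjusted p = 0.000814), averaging 19.6 CPM with NEL and 14.9 CPM with DMSO. RSAD2, or viperin, a radical SAM enzyme that makes a chain-terminating ribonucleotide (chr2:7005937-7038370, GRCh37, plus strand), had 5.80, 5.87, 3.74 and 5.68 CPM with NEL and 0.447, 1.42, 1.07 and 1.24 CPM with DMSO. NEL library 3 was low, yet still above every DMSO library (2.33 ± 0.25, edgeR adjusted p = 1.66e-06). CMPK2, the mitochondrial nucleotide kinase whose gene overlaps RSAD2 head to head by 830 bases, rose by 1.17 ± 0.10 (edgeR adjusted p = 1.53e-07). MX1, a dynamin-like GTPase against influenza virus, had 2.60, 2.47, 2.87 and 3.39 CPM with NEL, against 0.715, 1.68, 1.25 and 1.06 CPM with DMSO, with no overlap (1.26 ± 0.23, edgeR adjusted p = 0.000261).

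The 3 restriction factors that fell in U937 were BST2, IFITM2 and MX2. BST2, or tetherin, which holds budding virions at the membrane, had 105, 106, 104 and 102 CPM with NEL and 142, 142, 142 and 136 CPM with DMSO. Its groups were far apart relative to their spread (−0.42 ± 0.04, edgeR adjusted p = 2.78e-07). IFITM2, which blocks fusion of entering viruses, fell by 0.44 ± 0.05 (edgeR adjusted p = 2.65e-06), and MX2, an inhibitor of HIV-1 nuclear import, by 0.19 ± 0.04 (edgeR adjusted p = 0.000485). IFITM2 shares near-identical sequence with IFITM3 and overlaps IFITM1 by 1767 bases, so the split of reads between them is uncertain. SAMD9L and SP100 rose by 0.60 ± 0.15 and 0.24 ± 0.06 (edgeR adjusted p = 0.00209 and 0.00252), whereas SAMD9 was at 0.04 ± 0.07 (edgeR adjusted p = 0.624).

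PARP9, PARP12 and PARP14, of the ADP-ribosyltransferase family, rose in U937 by 0.53 ± 0.07, 0.41 ± 0.07 and 0.88 ± 0.07 (edgeR adjusted p = 1.31e-05, 0.000153 and 4.3e-08). DTX3L, the partner ligase of PARP9 whose gene overlaps it head to head, was at 0.11 ± 0.07 (edgeR adjusted p = 0.167), and passed with the replicate block (edgeR adjusted p = 0.0193), in libraries 1 and 3 alone and without DMSO library 4 (edgeR adjusted p = 0.0374). With libraries 1 and 2, and 3 and 4, summed it did not pass (edgeR adjusted p = 0.0736). PSMB9, a catalytic subunit of the immunoproteasome, rose by 0.88 ± 0.10 (edgeR adjusted p = 1.69e-06), while its neighbour PSMB8 was at −0.01 ± 0.06 (edgeR adjusted p = 0.863). PSMB9 is overlapped by TAP1 on the opposite strand and over 2360 bases by PSMB8-AS1 on the same strand, so its reads are uncertain. TAP1 rose by 0.35 ± 0.05 and PSMB8-AS1 by 0.18 ± 0.07 (edgeR adjusted p = 3.17e-05 and 0.0372). XAF1, which promotes cell death by opposing XIAP, had 24.0, 23.9, 23.7 and 24.9 CPM with NEL, against 9.39, 9.65, 10.7 and 10.8 CPM with DMSO. The groups were far apart relative to their spread (1.25 ± 0.08, edgeR adjusted p = 4.41e-09). IFI6, a mitochondrial protein that opposes apoptosis, rose by 0.83 ± 0.07 (edgeR adjusted p = 1.45e-07). IFI35 rose by 0.61 ± 0.24 (edgeR adjusted p = 0.0369), a call lost in each library set alone and without DMSO library 1 or 4 or NEL library 1 or 4 (edgeR adjusted p from 0.0906 to 0.117 with 1 library left out).

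**Figure D3:**
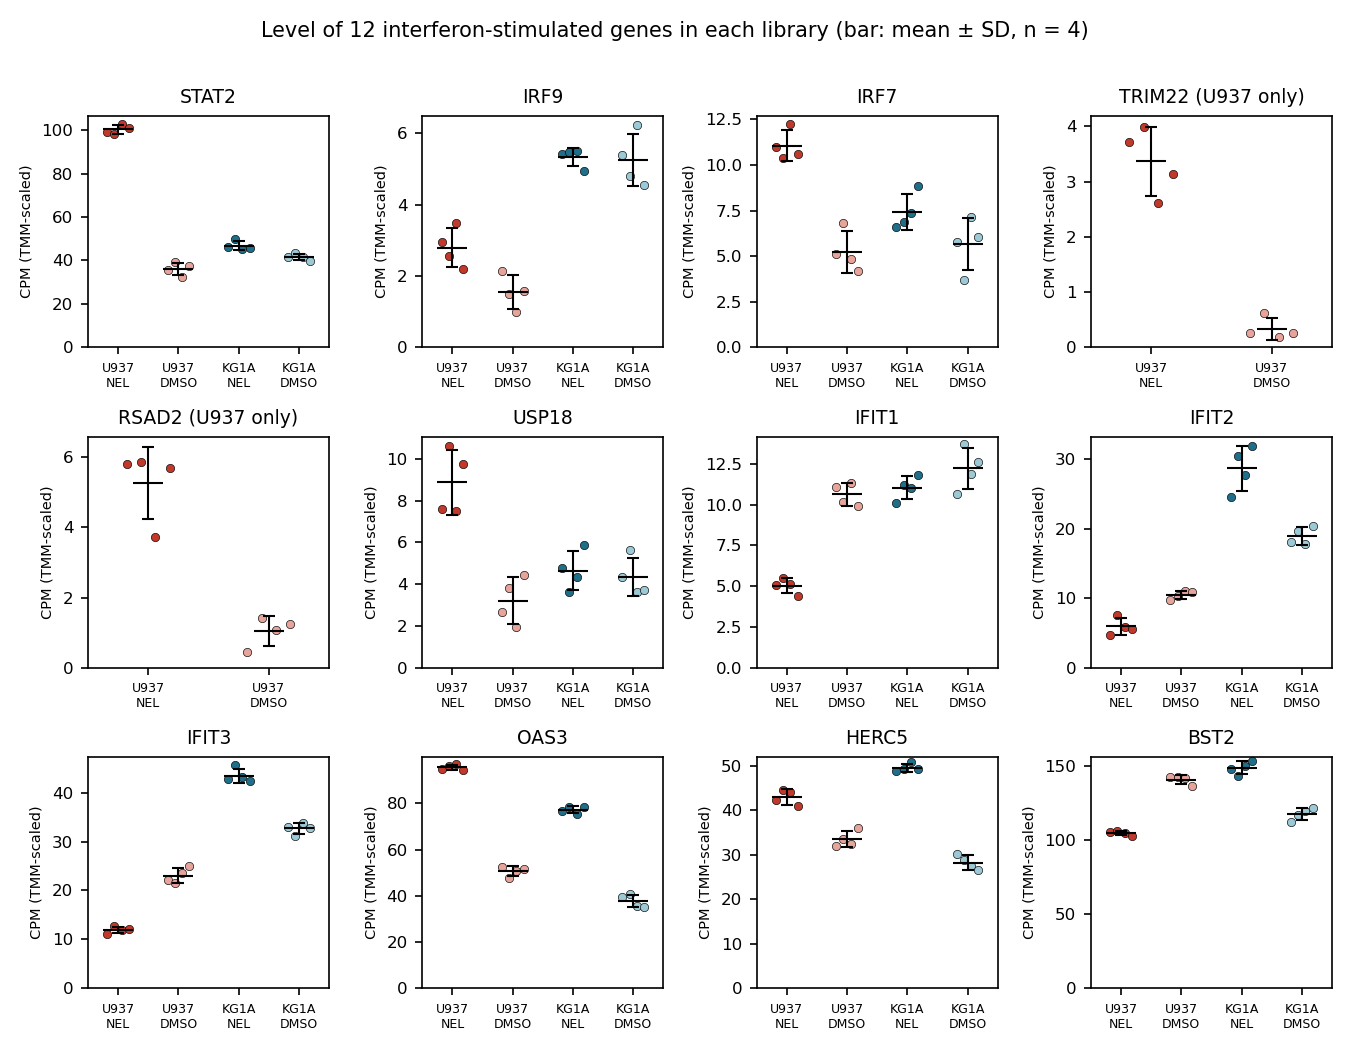
TMM-scaled CPM of 12 interferon-stimulated genes in every library, as points, with the group mean and SD (n = 4) as bars, on linear axes that start at 0; TRIM22 and RSAD2 are drawn for U937 only. STAT2 with NEL lies near 100 CPM in U937 and between 45.1 and 49.7 CPM in KG1A, and IFIT2, IFIT3 and BST2 are lower with NEL in U937 and higher in KG1A.

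In KG1A the same comparison gave changes over a narrower range, in both directions. Of 47 members tested, 16 were higher with NEL, 11 were lower and 20 were not called, while 23.6% of all 14250 genes tested were called higher, 23.6% lower and 47.2% either way. The share called lower was thus close to that of all genes. The median log2 fold change was 0.09, against −0.00 over all genes, with a range from −0.68 to 1.03, and OAS3 was the only member to pass 2-fold. Within libraries 1 and 3 alone 13 were called higher and 9 lower, and within libraries 2 and 4 alone 16 and 11. The 27 called members kept their direction in both sets, which is no independent support, as they were called on these same libraries. With replicate numbers as a block 21 were higher and 14 lower, no call was lost, and IRF7, MX1, DHX58, ISG15, IFITM2, PARP12, GBP1 and CMPK2 were gained. With libraries 1 and 2, and 3 and 4, summed, PARP12, GBP1 and CMPK2 were not called (edgeR adjusted p = 0.0761, 0.0795 and 0.087). Each sum mixes the library sets, so scatter between them is averaged out, and calls kept in this fit are no check against it.

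OAS3 and OAS1 had the largest rises in KG1A. OAS3 had 76.5, 78.3, 75.4 and 78.4 CPM with NEL, against 39.4, 40.8, 35.6 and 35.2 CPM with DMSO, with each group tight and far from the other (1.03 ± 0.05, edgeR adjusted p = 2.93e-09). OAS1 had 8.02, 10.7, 9.28 and 9.56 CPM with NEL and 5.95, 5.56, 4.09 and 4.66 CPM with DMSO, also without overlap (0.88 ± 0.13, edgeR adjusted p = 8.75e-05). OAS2 rose by 0.19 ± 0.05 (edgeR adjusted p = 0.00546). HERC5, the ISG15 ligase, had 48.8, 49.4, 50.7 and 49.2 CPM with NEL, against 30.1, 28.9, 27.5 and 26.5 CPM with DMSO, and rose by 0.80 ± 0.05 (edgeR adjusted p = 4.05e-08). ISG20 had 3.25, 4.93, 3.68 and 4.24 CPM with NEL and 1.61, 3.43, 1.67 and 3.56 CPM with DMSO, and here the groups overlapped. Its rise of 0.64 ± 0.24 (edgeR adjusted p = 0.0444) was not called in libraries 2 and 4 alone or without any 1 of 5 libraries, namely DMSO 1 or 3 or NEL 2, 3 or 4 (edgeR adjusted p from 0.0544 to 0.135).

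IFIT2, IFIT3 and BST2, lower with NEL in U937, were higher with NEL in KG1A. IFIT2 had 24.6, 30.5, 27.8 and 31.9 CPM with NEL and 18.1, 19.6, 17.8 and 20.4 CPM with DMSO (0.59 ± 0.09, edgeR adjusted p = 5.97e-05). IFIT3 stood at 42.8, 45.6, 43.1 and 42.4 CPM with NEL, against 32.9, 31.1, 33.8 and 32.9 CPM with DMSO (0.41 ± 0.05, edgeR adjusted p = 2.02e-05). BST2 reached 148, 143, 150 and 153 CPM with NEL, against 112, 117, 120 and 122 CPM with DMSO (0.33 ± 0.04, edgeR adjusted p = 1.04e-05). None of these groups overlapped. IFIT1 was not called in KG1A (−0.15 ± 0.10, edgeR adjusted p = 0.211), and LIPA was at 0.02 ± 0.05 (edgeR adjusted p = 0.822). GBP2, an interferon gamma-induced GTPase that attacks vacuoles of pathogens, had 117, 121, 112 and 123 CPM with NEL and 96.8, 101, 89.9 and 100 CPM with DMSO, apart by a small margin relative to its level (0.28 ± 0.05, edgeR adjusted p = 0.000195).

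RSAD2 fell most of the 47 members tested in KG1A. It had 162, 174, 158 and 182 CPM with NEL, against 258, 276, 260 and 282 CPM with DMSO, and its groups were wide apart (−0.68 ± 0.05, edgeR adjusted p = 7.28e-08). IFIH1 had 34.0, 40.5, 39.4 and 44.7 CPM with NEL and 51.6, 55.3, 50 and 53.8 CPM with DMSO (−0.42 ± 0.07, edgeR adjusted p = 0.000229). PSMB8 had 73.5, 82.0, 81.1 and 80.6 CPM with NEL, against 91.6, 93.5, 97 and 96.5 CPM with DMSO (−0.26 ± 0.05, edgeR adjusted p = 0.000248). For both, each NEL library was below each DMSO library. TRIM25 had 181, 174, 176 and 186 CPM with NEL and 206, 215, 213 and 219 CPM with DMSO, without overlap (−0.26 ± 0.04, edgeR adjusted p = 4.9e-05). TRIM22, PSMB9 and SAMD9L, which rose in U937, fell in KG1A by 0.25 ± 0.05, 0.23 ± 0.06 and 0.20 ± 0.05 (edgeR adjusted p = 0.00108, 0.00508 and 0.00205). The genes that overlap PSMB9 fell there too, TAP1 by 0.23 ± 0.05 and PSMB8-AS1 by 0.25 ± 0.07 (edgeR adjusted p = 0.00251 and 0.00639).

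The factors moved little in KG1A. STAT2 had 46.2, 49.7, 45.1 and 45.7 CPM with NEL, against 41.7, 43.4, 41.7 and 39.5 CPM with DMSO, and rose by 0.16 ± 0.05 (edgeR adjusted p = 0.0207). The groups did not overlap, but the call was lost by DESeq2, in libraries 1 and 3 alone, and without DMSO library 4 or NEL library 2 (edgeR adjusted p from 0.068 to 0.0716 with 1 library left out). IRF9 had 5.41, 5.46, 5.52 and 4.96 CPM with NEL and 5.39, 4.82, 6.22 and 4.57 CPM with DMSO, and IRF1 had 70.3, 64.1, 73.2 and 63.9 CPM with NEL and 81.2, 65.7, 73.9 and 62.7 CPM with DMSO. Both overlapped fully and neither was called (0.02 ± 0.13 and −0.07 ± 0.07, edgeR adjusted p = 0.923 and 0.475). IRF7 had 6.58, 6.87, 7.35 and 8.84 CPM with NEL, against 5.76, 3.71, 7.15 and 6.03 CPM with DMSO, and the groups overlapped (0.38 ± 0.17, edgeR adjusted p = 0.0743). It passed with the replicate block (edgeR adjusted p = 0.00603) and without DMSO library 3 (edgeR adjusted p = 0.0282). MX1 and DHX58 likewise missed the threshold (0.35 ± 0.14 and 0.38 ± 0.15, edgeR adjusted p = 0.0554 and 0.0553) and passed with the block (edgeR adjusted p = 0.0248 and 0.0222). The other rises were those of IFI6, IFI44, IFI44L, IFITM3, EIF2AK2 and XAF1, from 0.16 to 0.28, and the other falls those of ADAR, IFIT5, IFITM1 and SAMD9, from −0.24 to −0.13. Some of these calls were lost when 1 library was left out (edgeR adjusted p from 0.0514 to 0.166). This held for IFI6 without DMSO 2, 3 or 4 or NEL 1, 2 or 3, for XAF1 without DMSO 1, 2 or 3 or NEL 2, 3 or 4, and for IFITM1 without DMSO 1, 3 or 4 or NEL 1, 2 or 4. It also held for IFITM3 without DMSO 2 or 4 or NEL 1 or 3, and for SAMD9 without DMSO 3 or 4 or NEL 1, 2 or 3. IFIT5, IFI6, IFI44L and IFITM1 were not called in libraries 1 and 3 alone, nor were IFI6 and SAMD9 in libraries 2 and 4 alone.

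The change with NEL was called different between the lines for 30 of the 49 members, against 47.4% of all genes. Tested as an interaction over all 16 libraries, 21 of 49 members had a more positive change in U937 than in KG1A, 9 had a more negative one and 19 were not called, while 21.1% of all 16117 genes tested were called higher and 26.3% lower. OAS2, IFI44, IFI44L, IFITM1, IFITM3, GBP1 and GBP2 passed the filter here only through KG1A, and MX2 and OASL only through U937. Among these, GBP2 and IFI44 were called, so the count is a description. The median difference of log2 fold changes was 0.29 over the members and −0.03 over all genes. Within libraries 1 and 3 alone 20 were called higher and 7 lower, and within libraries 2 and 4 alone 17 and 9. With the replicate block the counts were 28 and 9, and the shares of all genes in these fits were not counted. TRIM22 differed by 3.54 ± 0.28 and RSAD2 by 3.00 ± 0.23 (edgeR adjusted p = 8.11e-10 and 5.21e-10). Both had opposite calls in the lines. In U937, TRIM22 and RSAD2 were tested mainly through their NEL libraries, so their rises there are no independent support for opposite directions. Their differences between the lines rest on low U937 counts with DMSO. SAMD9L and PSMB9 also had opposite calls (0.80 ± 0.13 and 1.10 ± 0.11, edgeR adjusted p = 3.03e-05 and 4.36e-08). IFIT2 differed by −1.41 ± 0.16 and IFIT3 by −1.35 ± 0.09 (edgeR adjusted p = 1.55e-07 and 4.72e-11), and BST2 by −0.76 ± 0.05 (edgeR adjusted p = 9.54e-11).

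For the factors, the difference was 1.31 ± 0.07 for STAT2, 0.81 ± 0.26 for IRF9, 0.69 ± 0.23 for IRF7 and 0.21 ± 0.12 for IRF1 (edgeR adjusted p = 6.81e-12, 0.0121, 0.0149 and 0.155). Without KG1A DMSO library 3 the IRF7 difference was 0.56 (edgeR adjusted p = 0.053), and with the block that of IRF1 passed (edgeR adjusted p = 0.0317), but not with libraries summed in pairs (edgeR adjusted p = 0.063). The IRF7 and IRF9 differences were 1.12 for both in libraries 1 and 3, and 0.25 and 0.47 in libraries 2 and 4, where neither was called (edgeR adjusted p = 0.469 and 0.367). USP18 differed by 1.36 ± 0.29 (edgeR adjusted p = 0.000556). OAS3 and OAS1, which rose in both lines, were not called as different (−0.12 ± 0.07 and −0.09 ± 0.19, edgeR adjusted p = 0.167 and 0.764), nor was EIF2AK2 (0.04 ± 0.06, edgeR adjusted p = 0.559). The terms of GBP2 and IFI44 were the largest in size (3.75 ± 0.58 and −3.74 ± 0.54, edgeR adjusted p = 1.3e-05 and 6.67e-06), but they rest on very few U937 counts. Over the 4 U937 libraries, GBP2 had 42 counts with NEL and 2 with DMSO, a ratio of 20.3 (95% exact interval 5.27 to 173, counting error only). IFI44 had 3 counts with NEL and 38 with DMSO, a ratio of 13.1 in favour of DMSO (4.16 to 66.5), whereas in KG1A it rose by 0.23 ± 0.05 (edgeR adjusted p = 0.00118).

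Without NEL, most of these genes were lower in U937 than in KG1A. Of the 49, 7 were higher in U937, 36 were lower and 6 were not called, while 43% of all 15181 genes tested were called higher, 43.4% lower and 86.4% either way, with a median log2 difference of −1.20 over the members and −0.00 over all genes. The median was the same with the 5 genes of 3 counts or fewer in a group entered at their count ratio. Each of these genes stays on the same side of the median either way, so this is no check of it. OAS2, IFI44L, IFITM1, IFITM3, GBP1, GBP2 and TRIM22 reached 10 counts in 0 U937 libraries with DMSO, and MX2 and OASL in 0 of KG1A. ISG20, IFI44, RSAD2 and MX1 reached 10 counts in 1, 2, 3 and 3 of the 4 U937 libraries with DMSO. All of these passed the filter only through the line where they are high, so their direction was fixed or nearly fixed. The count and median are therefore a description. Within libraries 1 and 3 alone 6 were higher and 36 lower, and within libraries 2 and 4 alone 8 and 35. Per transcript length, IFITM2 led in both lines, with 131.8 ± 6.76 RPKM in U937 and 200.1 ± 10.2 RPKM in KG1A with DMSO (reads scaled by exon length and library size, mean ± SD, n = 4). BST2 followed in U937 at 121.3 ± 3.2 RPKM, and UBE2L6 in KG1A at 142.3 ± 8.26 RPKM.

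Several members were close to absent in U937 and clearly detected in KG1A. With DMSO, the libraries of U937 held 1 count of GBP1 in all, and those of KG1A 3201 counts, a ratio of 3341 in favour of KG1A (599 to 132004, 95% exact, counting error only). For GBP2 the counts were 2 in U937 and 4187 in KG1A (ratio 2185, 605 to 18049). IFITM1 had 2 counts in U937 and 2520 in KG1A (ratio 1315, 364 to 10865), and IFI44L, a member of unsettled function, 1 count in U937 and 972 in KG1A (ratio 1015, 182 to 40112). All of these U937 counts were below the floor of 3 counts. IFITM3 held 0.179, 0.177, 0.0893 and 0 CPM in U937, against 67.7, 55.6, 71.6 and 55.8 CPM in KG1A (fitted log2 difference −9.08 ± 0.22, edgeR adjusted p = 3.99e-16). RSAD2 held 0.447, 1.42, 1.07 and 1.24 CPM in U937 and 258, 276, 260 and 282 CPM in KG1A (−8.08 ± 0.11, edgeR adjusted p = 2.06e-19). IFITM3 and RSAD2 passed the filter only through KG1A, so these p-values are no independent support for the direction. TRIM22, which rose most with NEL in U937, averaged 0.576 ± 0.1 RPKM there even with NEL, against 12 ± 0.54 RPKM in KG1A with DMSO.

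MX2 and OASL ran the other way, expressed in U937 and close to absent in KG1A. MX2 had 146, 144, 149 and 147 CPM in U937 and 0.661, 0.463, 0.650 and 0.639 CPM in KG1A with DMSO (7.81 ± 0.09, edgeR adjusted p = 5.45e-20). It passed the filter only through U937, so this p-value is no independent support for the direction. OASL had 124 counts over the U937 libraries and 3 over those of KG1A, a ratio of 39.6 (13.2 to 195, 95% exact, counting error only). Of the factors, IRF1 and IRF9 were lower in U937 (−2.25 ± 0.08 and −1.83 ± 0.20, edgeR adjusted p = 1.24e-13 and 2.23e-07), as was STAT2, by less (−0.29 ± 0.06, edgeR adjusted p = 0.000556). IRF7 was not called (−0.20 ± 0.19, edgeR adjusted p = 0.332). Leaving out 1 library ended 3 of these calls (edgeR adjusted p from 0.0507 to 0.153). These were HERC5 without KG1A 3 or 4 or U937 2 or 4, USP18 without KG1A 1 or 2 or U937 1 or 3, and IFIT1 without KG1A 2.

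**Figure D4:**
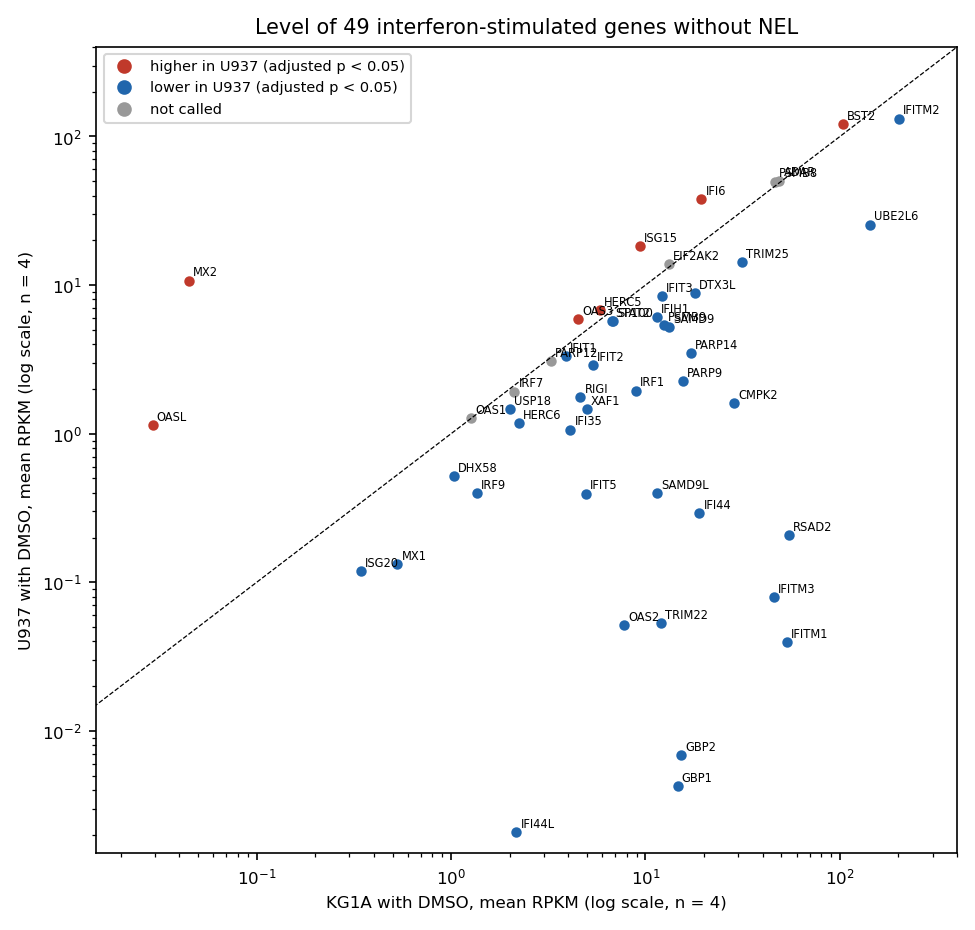
Mean RPKM (n = 4) of the 49 interferon-stimulated genes in U937 with DMSO (vertical, log scale) against KG1A with DMSO (horizontal, log scale); the dashed line marks equal levels and colours give the edgeR call. Most points, 36 of 49 called lower in U937, lie below the line, and MX2 and OASL lie far above it.

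Upstream of these genes, no interferon transcript passed the filter on low counts in any comparison, over 21 ligand genes. IFNB1 had 0 to 1 count in each U937 library with NEL and 0 with DMSO, and 0 to 3 in KG1A with NEL against 0 to 1 with DMSO. IFNL1, a lambda interferon, had 5, 4, 6 and 7 counts in KG1A with NEL and 2, 2, 1 and 0 counts with DMSO, and 1 count over all 4 U937 libraries with NEL. The lambda receptor chain IFNLR1 was at 0 counts throughout. Counts this low were not tested.

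All 8 tested genes of the receptor and kinase list rose in U937 (median 0.44), against 2 higher and 1 lower of 8 in KG1A (median 0.04), while of all genes 34.6% were called higher in U937, and 23.6% higher and 23.6% lower in KG1A. JAK2, a kinase of the interferon gamma receptor, rose most in U937 (0.74 ± 0.10, edgeR adjusted p = 1.02e-05), followed by IL10RB, a chain shared with the interleukin-10 receptor (0.58 ± 0.06, edgeR adjusted p = 2.33e-06), and IFNGR1 (0.57 ± 0.05, edgeR adjusted p = 3.32e-07). IFNAR1 and IFNAR2 rose there by 0.16 ± 0.05 and 0.39 ± 0.06 (edgeR adjusted p = 0.0062 and 2.5e-05), and were at 0.01 ± 0.04 and 0.05 ± 0.06 in KG1A (edgeR adjusted p = 0.807 and 0.59). JAK1 rose in U937 and fell in KG1A (0.22 ± 0.05 and −0.20 ± 0.04, edgeR adjusted p = 0.00111 and 0.000305), and TYK2 rose in both (0.30 ± 0.04 and 0.26 ± 0.05, edgeR adjusted p = 2.55e-05 and 0.000307). The change differed between the lines for 6 of the 8, each time towards U937, beside 21.1% of all genes called higher and 26.3% lower in that test.

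Among genes of nucleic acid sensing, 4 of 15 tested rose and 5 fell in U937, and 4 of 15 rose and 4 fell in KG1A, shares near the 34.6% and 34.7% of all genes in U937 and the 23.6% each way in KG1A. The DNA sensors AIM2 and IFI16 rose most in U937 (1.92 ± 0.27 and 1.55 ± 0.07, edgeR adjusted p = 1.9e-05 and 1.94e-10). IFI16 averaged 200 CPM with NEL and 68.7 CPM with DMSO there, and AIM2 averaged 2.30 CPM with NEL and 0.601 CPM with DMSO. The adaptor MYD88 fell in U937 by 0.66 ± 0.06 (edgeR adjusted p = 1.86e-07). In KG1A the largest changes were those of the adaptor TICAM1 (0.44 ± 0.13, edgeR adjusted p = 0.00964), LSM14A, an RNA-binding protein (−0.41 ± 0.03, edgeR adjusted p = 3.77e-07), and IRF5 (−0.32 ± 0.07, edgeR adjusted p = 0.00156). CGAS rose in KG1A (0.30 ± 0.07, edgeR adjusted p = 0.00307), and was at −0.07 ± 0.09 in U937 (edgeR adjusted p = 0.478).

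Of the inhibitors of the pathway and enzymes that clear nucleic acid, 9 of 18 rose and 5 fell in U937, and 7 of 17 rose and 3 fell in KG1A, beside 34.6% higher and 34.7% lower of all genes in U937 and 23.6% each way in KG1A. SOCS1, which blocks the receptor kinases, rose in both lines (0.97 ± 0.18 in U937 and 1.00 ± 0.14 in KG1A, edgeR adjusted p = 0.000345 and 5.15e-05), and the difference of −0.04 ± 0.29 was not called (edgeR adjusted p = 0.963). TNFAIP3, or A20, rose by 1.29 ± 0.06 in U937 and 0.55 ± 0.05 in KG1A (edgeR adjusted p = 3.13e-10 and 6.15e-07). IRF2, a repressor at ISRE sites, averaged 51.0 CPM with NEL and 24.7 CPM with DMSO in U937 (1.05 ± 0.06, edgeR adjusted p = 2.22e-09), and was not called in KG1A (−0.05 ± 0.07, edgeR adjusted p = 0.615). The phosphatase PTPN6 and RNASEH2A, a subunit of RNase H2, were the next largest rises in KG1A (0.86 ± 0.20 and 0.70 ± 0.06, edgeR adjusted p = 0.00282 and 2.22e-07).

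A further list of interferon-stimulated genes that are not among the 49 gave 25 of 50 tested members higher and 10 lower in U937 (median 0.22), and 19 of 49 higher and 15 lower in KG1A (median 0.03). Over all genes the shares were 34.6% higher and 34.7% lower in U937, and 23.6% each way in KG1A. TNFSF10, the death ligand TRAIL, rose most in U937 (1.95 ± 0.16, edgeR adjusted p = 1.15e-07), averaging 8.68 CPM with NEL and 2.25 CPM with DMSO. SLFN5, a Schlafen family member, and UBA7 came next (1.71 ± 0.22 and 1.52 ± 0.08, edgeR adjusted p = 8.33e-06 and 2.26e-09). In KG1A the largest were HELZ2, a nuclear coactivator (0.92 ± 0.18, edgeR adjusted p = 0.000588), TRIM26 (0.76 ± 0.09, edgeR adjusted p = 1.29e-05) and LGALS3BP (0.62 ± 0.16, edgeR adjusted p = 0.00604). IKBKE was not analysed here.

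**Figure D5:**
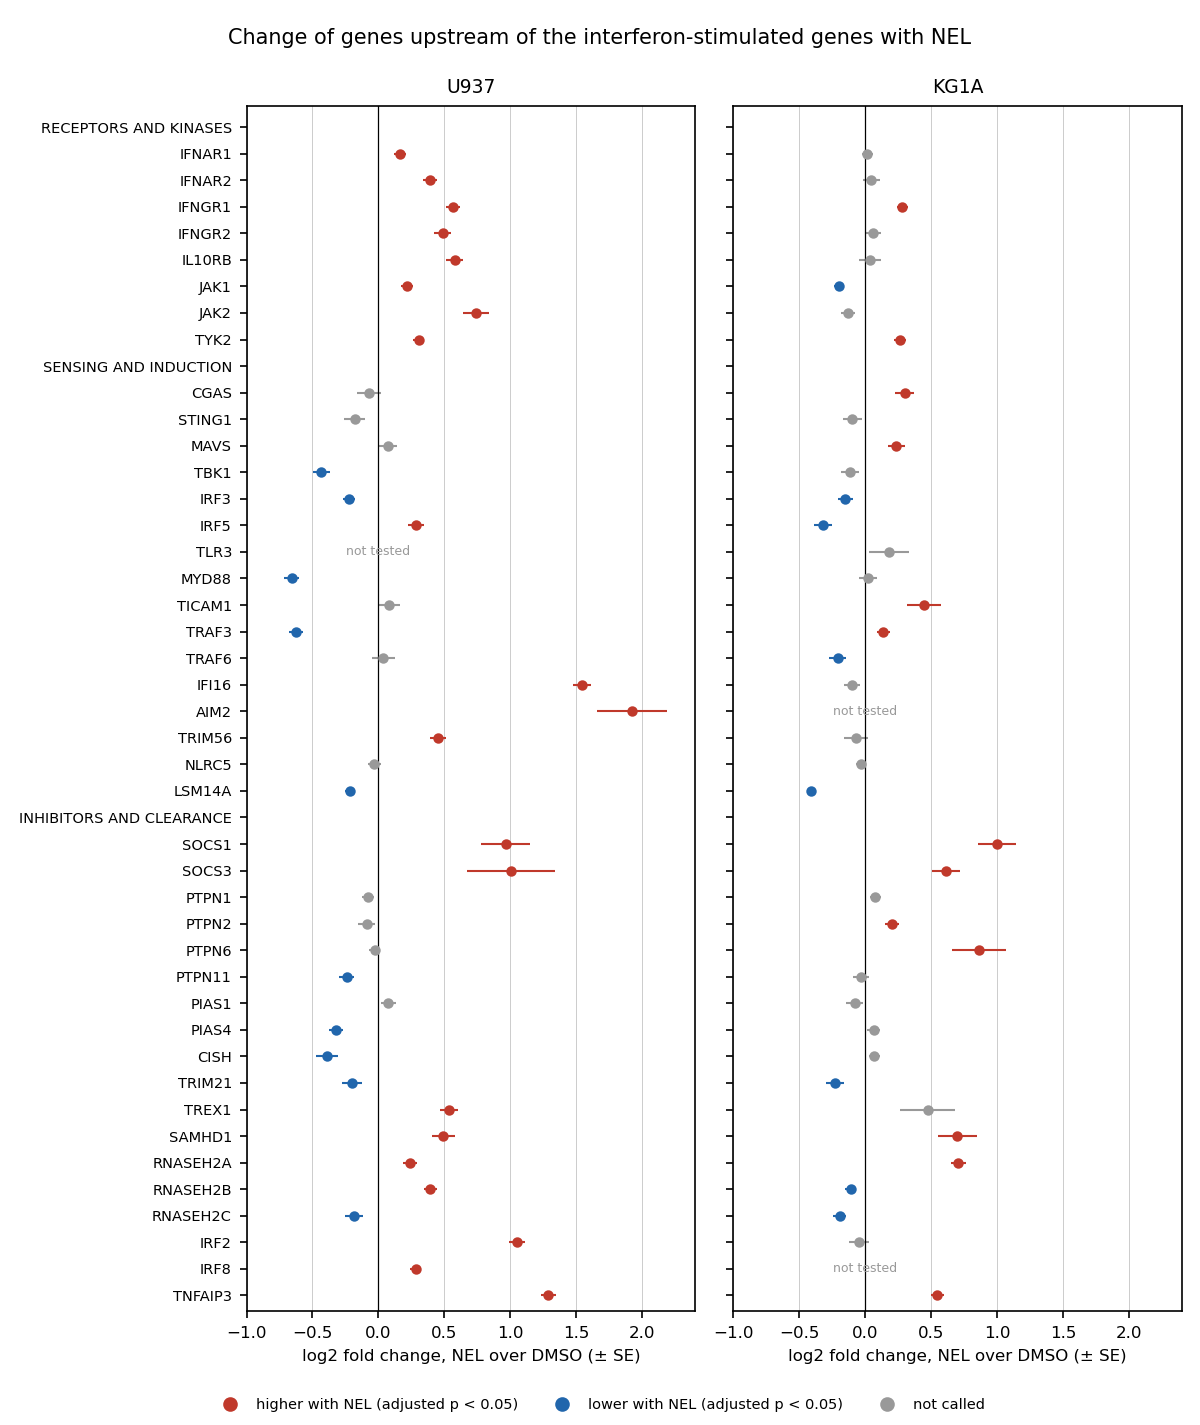
Log2 fold change of NEL over DMSO for genes upstream of the interferon-stimulated genes in U937 (left) and KG1A (right), in 3 lists; points are edgeR estimates, bars ±1 SE, colours the call at an adjusted p under 0.05. All 8 receptor and kinase genes tested were higher in U937, against 2 of 8 in KG1A, while the sensing and inhibitor lists held calls in both directions in both lines.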

How the data were processed

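The submitters' processing notes name bcl2fastq 2.18.0.12, TopHat2, HTSeq 0.11.2 and the build hg19 (GRCh37); neither annotation nor strand option of the counting was found there. The authors deposited raw read counts per gene. The RPKM values, also deposited by the authors, equalled the counts scaled by exon length and library total (largest relative deviation 1.86e-07). Of 34618 gene IDs, 32562 matched a symbol.

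Counts were tested in R 4.3.3 with edgeR 4.0.16 (quasi-likelihood test, TMM factors, minimum count 10, minimum total 15), adjusted by Benjamini-Hochberg over all genes tested. Each line's 8 libraries gave its comparison of NEL with DMSO, the DMSO libraries gave that between lines, and all 16 gave the interaction. The standard error (SE) is the log2 fold change over the square root of the F statistic. Printed CPM share 1 TMM scale. Levels of different genes were compared in RPKM only. Alternatives used DESeq2 1.42.0, limma 3.58.1 (log2 of RPKM plus 0.5 or 0.1), other factors, filters and thresholds, library sets, a replicate block and each library left out. The model code was tested on simulated data. Python 3.11.15 with matplotlib 3.10.9 drew the figures.

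The members and lists were chosen with earlier results of these data known. The rule for values per library took STAT2, IRF1, IRF7 and IRF9 everywhere, in each line the 8 largest called rises and 4 largest called falls with at least 1 CPM in the higher group, and the 6 largest called terms of each other comparison. In the pathway lists it took the 3 largest changes called in a line, with IFNB1, JAK1, TYK2, IFNAR1 and IFNAR2, and 1 gene is not reported here. Other members named were chosen after their values were seen.

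Same-numbered libraries of NEL and DMSO deviated together from their group means, with correlations of 0.333 to 0.405 in U937 and 0.317 to 0.406 in KG1A. These all exceed 0.1, the level set for taking the label numbers as pairs, but 4 of 8 libraries correlated best with another number, at up to 0.439, always within the sets 1 and 3, or 2 and 4. The most alike pairs in a group, 1 with 3 and 2 with 4, still differed by more than sampling noise (chi-square per gene 1.26 to 1.98), and no libraries were merged for the main tests.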

Additional observations from a re-analysis of the deposited data

Results flagged for a closer look

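In 7 of the 96 checked groups of 4 libraries, 1 library lay far from the other 3 by Dixon's criterion, where chance gives about 1 in 20. These were MX1 in KG1A with NEL (5.32 CPM, low) and with DMSO (5.95 CPM, high), IFI44L in KG1A with NEL (30.8 CPM, high), PSMB8 in KG1A with NEL (73.5 CPM, low), RSAD2 in U937 with NEL (3.74 CPM, low), BST2 in U937 with DMSO (136 CPM, low) and TRIM25 in U937 with DMSO (104 CPM, high). The change with NEL differed between U937 and KG1A, by the interaction test, for STAT2 (1.31), IRF7 (0.693), IRF9 (0.813), USP18 (1.36), RSAD2 (3.00) and TRIM22 (3.54), each more positive in U937 on the log2 scale. IFIT2 (−1.41) was more negative in U937. The terms of GBP2 (3.75) and IFI44 (−3.74) rest on U937 groups of 2 to 42 counts. Those of RSAD2 and TRIM22 rest on low U937 counts with DMSO.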

How the results depend on the processing

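Of the counts of called members under the alternatives, 175 stayed within 1.5 times the count given and 9 did not. Shares of all genes were not counted under the alternatives, the 2-fold cut included, so these counts are a description of the members alone. A demand for at least 2-fold change left 10 higher and 1 lower in U937, 1 higher and 0 lower in KG1A, 10 higher and 3 lower for the interaction, and 2 higher between the lines. Both limma fits on log2 RPKM called 7 lower in KG1A. With each library left out, U937 had 24 to 26 higher and 8 to 10 lower, KG1A 12 to 16 higher and 9 to 11 lower, the interaction 19 to 23 higher and 7 to 9 lower, and the lines 6 to 8 higher and 34 to 36 lower. The replicate block gave 26 higher and 10 lower in U937, 21 higher and 14 lower in KG1A, 28 higher and 9 lower for the interaction and 7 higher and 36 lower between the lines. Besides the calls named above, it added RIGI, IFITM3, DTX3L, SAMD9, TRIM25 and SP100 to the interaction and changed no other call of a member. With libraries 1 and 2, and 3 and 4, summed, IFITM3 and SP100 were called too, but RIGI, DTX3L, SAMD9 and TRIM25 were not (edgeR adjusted p = 0.054, 0.143, 0.0823 and 0.0603). These sums mix the library sets and average out scatter between them, so calls kept there are no check against that scatter. The sign turned under some alternatives only in uncalled values. IRF1 in KG1A was 0.00199 with RPKM plus 0.5 and 0.00226 with RPKM plus 0.1, and ran from −0.123 to 0.000422 with 1 library left out. IRF9 in KG1A was −0.0918 in libraries 1 and 3, and ran from −0.0436 to 0.109 with 1 library left out, being −0.0212 without DMSO library 2. IRF7 between the lines was 0.0834 in libraries 2 and 4. The cause was not tested. Of the values of single named genes, 1089 kept direction and side of the threshold, 44 fell short of it, 11 passed it anew and 7 changed sign. At this depth, members near 0 in a line allow no firm fold.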
